A study of Mus musculus with 23 samples.

Results

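Gabra2, Nnt, Wdfy1, Ide, Adi1, Entpd4 and Entpd4b are 7 mouse genes linked to differences between C57BL/6 substrains or to differences in gene copy number among C57BL/6 mice. They were taken by symbol from the 39017 gene rows of the 2 deposited tables, and all 7 were found in both. The genes were selected on measured values of these same libraries, where they stood out by genotype label, by condition or from one library to the next. Their levels and differences are therefore given as a description, with no test. The question was which of the libraries share a genetic background at these genes.

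C57BL/6 mice have been bred apart for many generations, and sister colonies now differ by single-base changes, small deletions and duplicated segments. C57BL/6J mice carry a deletion inside Nnt and a change in an intron of Gabra2, each linked to lower expression of its gene, and a segment that spans Ide and Fgfbp3 varies in copy number among C57BL/6J animals. Where a knockout line and its wild-type comparison come from different colonies, or where a segment around the targeted gene comes from another strain, such genes can differ between the groups apart from the targeted gene.

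The study sequenced poly(A) RNA from the hippocampus of wild-type (WT) mice and of mice whose labels name a knockout of the neurensin 2 gene, Nrsn2. Controls were set against mice after chronic social defeat stress (CSDS), which here was 10 days of a daily 5 min meeting with a new aggressive CD-1 mouse, followed by housing across a perforated divider. Each genotype label has 5 control and 5 CSDS libraries, which makes 4 groups, and 3 further libraries (WT 9B, knockout-labelled 10B and knockout-labelled 11) carry a control title with a CSDS treatment field. The labels give neither the Nrsn2 allele nor the strain, substrain, supplier, age or sex of the mice, and do not say whether WT mice were littermates.

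Values are RPKM, reads scaled for gene length and library size, as the authors deposited them. Differences are on the log2(RPKM + 0.5) scale with their standard error (SE), which understates changes of low genes, and a gene was called at a limma adjusted p below 0.05. Nrsn2 was at 29.5 ± 2.25 RPKM (SD, n = 11) in WT libraries and at 32.9 ± 2.37 (SD, n = 12) in knockout-labelled ones, with overlapping ranges of 25.3 to 33.3 and 28.0 to 37.4 RPKM, so its level did not mark the knockout label. Estimated depth was 25.65 to 55.71 M reads, and the genes described here had 502 to 19829 estimated reads in any library, which leaves a counting error of at most 4.46%. Control 10 of each genotype stood apart, with Xist at 56.5 RPKM in WT and 48.2 in the knockout label against 0.025 to 0.0618 in 19 libraries, and the knockout-labelled 10B and 11 were at 1.45 and 1.60. Ddx3y, a gene of the Y chromosome, was at 0.163 RPKM in WT control 10 and 0.499 in knockout-labelled control 10. It was at 8.75 to 13 RPKM in the other 21 libraries. Control 10 of each genotype thus read as female and no CSDS library did, so sex was not balanced between control and CSDS groups. Markers of hippocampal neurons were present in every group (all 5 of 5 on each neuronal list), and none was at 0 in every library of a group.

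**Figure D1:**
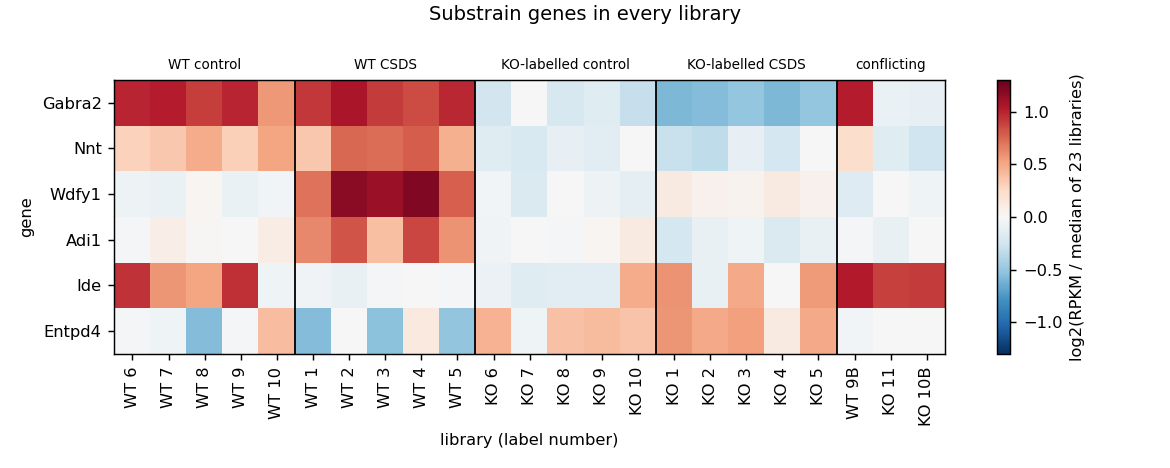
Each column is a library and each row a gene (Entpd4b equals Entpd4 and is left out). Colour gives log2 of RPKM over the median of the 23 libraries. Gabra2 and Nnt are high in every WT column, Wdfy1 and Adi1 in the 5 WT CSDS columns, while Ide and Entpd4 change from column to column within groups.

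Gabra2 encodes the alpha 2 subunit of the GABA-A receptor, the chloride channel through which GABA inhibits neurons, and lies on mm10 chr5:70957597-71095849, minus strand. Its RPKM in WT controls 6 to 10 was 52.2, 53.1, 48.7, 52.2 and 38.6. In WT CSDS libraries 1 to 5 it was 49.4, 54.6, 49.2, 47.2 and 51.7. All 10 values lay above every knockout-labelled one, and the lowest of them came from WT control 10. Between groups of 5, the genotype labels did not overlap for 4.96% of genes in controls and 5.45% after CSDS.

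Knockout-labelled controls 6 to 10 had Gabra2 at 22.3, 26.2, 22.7, 23.5 and 21.4 RPKM. Knockout-labelled CSDS libraries 1 to 5 had 17.5, 17.7, 18.5, 17.4 and 18.5 RPKM. The 2 knockout-labelled groups did not overlap, as was so for 12.9% of genes. The CSDS libraries were lower and closer together (17.9 ± 0.547, SD, n = 5, against 23.2 ± 1.84). Among the libraries of conflicting condition, WT 9B was at 53.3, within the WT range, and knockout-labelled 10B and 11 were at 24.4 and 24.7, within the range of the knockout-labelled controls and above all knockout-labelled CSDS libraries.

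The knockout label minus WT difference in Gabra2 was -1.06 ± 0.09 (SE) in controls, -1.11 without control 10 of both genotypes, and -1.47 ± 0.04 after CSDS. CSDS minus control was 0.05 ± 0.08 in WT and -0.36 ± 0.05 in the knockout label. In bulk RNA, fewer cells of a type and less RNA per cell cannot be told apart. The summed level of the 5 inhibitory neuron markers was 313 to 335 RPKM in knockout-labelled CSDS libraries and 266 to 302 in WT CSDS libraries. The 5 excitatory markers summed to 1135 to 1197 and 1215 to 1272. Knockout-labelled controls were at 282 to 327 for the inhibitory and 1159 to 1253 for the excitatory list, overlapping their CSDS libraries. The 5 choroid plexus markers summed to 21.8 to 4840 RPKM in WT controls. They summed to 568 to 4462 in knockout-labelled controls and 496.5 to 3729 in knockout-labelled CSDS libraries. The 5 endothelial markers summed to 22.4 to 27.7 RPKM in knockout-labelled CSDS libraries and 33.4 to 42.4 in their controls. The part of these lists in the Gabra2 values was not tested.

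Nnt encodes the mitochondrial nicotinamide nucleotide transhydrogenase, which makes NADPH from NADH, and lies on chr13:119335448-119408997, minus strand. In WT controls 6 to 10 it was at 3.91, 4.07, 4.44, 3.95 and 4.54 RPKM. In WT CSDS libraries 1 to 5 it was at 4.06, 5.32, 5.25, 5.49 and 4.37. The CSDS libraries 2, 3 and 4 were the highest of the series, while 1 and 5 lay among the controls.

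Knockout-labelled controls 6 to 10 had Nnt at 2.84, 2.78, 2.96, 2.89 and 3.18 RPKM. Knockout-labelled CSDS libraries 1 to 5 had 2.61, 2.53, 2.96, 2.72 and 3.16. These groups overlapped each other and not the WT libraries. WT 9B was at 3.73, the lowest WT value, and knockout-labelled 10B and 11 were at 2.65 and 2.85. All 12 knockout-labelled libraries thus lay below all 11 WT libraries. Between groups of 5, the genotype labels did not overlap for 4.96% of genes in controls and 5.45% after CSDS. The knockout label minus WT difference in Nnt was -0.45 ± 0.05 (SE) in controls and -0.71 ± 0.08 after CSDS. A gene's RPKM sums reads over its exons, so whether inner exons of Nnt are missing in some libraries was not tested. GENCODE M21 also has a second Nnt gene model, which holds 96.3% of the 75-base stretches of the longest coding Nnt transcript, and how reads of the 2 models were divided is not stated.

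**Figure D2:**
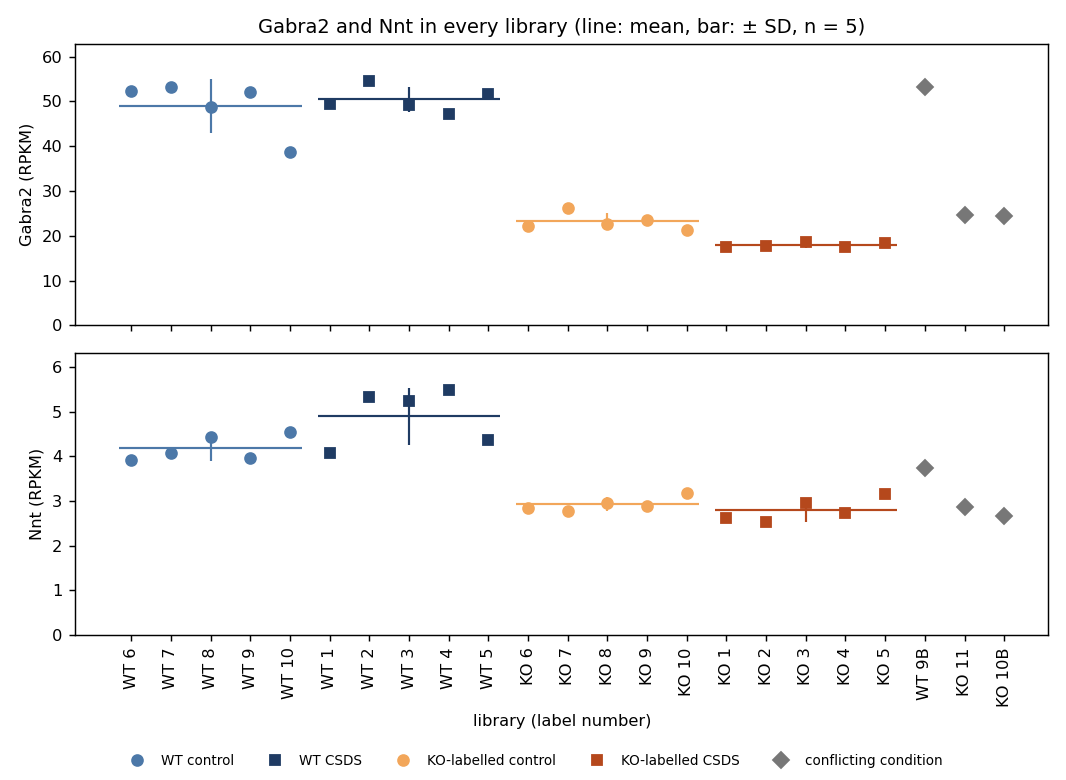
RPKM of Gabra2 (upper) and Nnt (lower) in every library, with the mean and SD of each group of 5. For both genes the 11 WT libraries lie above the 12 knockout-labelled ones, and Gabra2 of the knockout-labelled CSDS group, 17.4 to 18.5, lies below that of its controls.

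Wdfy1 encodes an endosomal protein with a FYVE domain and WD repeats and lies on chr1:79702262-79776143, minus strand. WT controls 6 to 10 had 3.85, 3.79, 4.10, 3.78 and 3.91 RPKM. WT CSDS libraries 1 to 5 had 6.54, 9.04, 8.72, 9.26 and 6.90. The groups did not overlap, as was so for 17.1% of genes, and libraries 1 and 5 again stood together below 2, 3 and 4.

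In the knockout-labelled controls 6 to 10 Wdfy1 was at 3.91, 3.53, 4.02, 3.85 and 3.71 RPKM. In the knockout-labelled CSDS libraries 1 to 5 it was at 4.37, 4.19, 4.16, 4.35 and 4.18. These groups did not overlap either, as was so for 12.9% of genes, but were close. The CSDS minus control difference was 0.14 ± 0.04 (SE) against 0.96 ± 0.09 in WT. WT 9B (3.59), knockout-labelled 10B (3.85) and knockout-labelled 11 (4.00) all lay below every CSDS library of their genotype.

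Adi1 encodes acireductone dioxygenase 1, an enzyme of the methionine salvage pathway, and lies on chr12:28675231-28682175, plus strand. WT controls 6 to 10 had 11.5, 12.4, 11.8, 11.6 and 12.4 RPKM. WT CSDS libraries 1 to 5 had 18.0, 20.5, 15.2, 21.2 and 17.4. As for Wdfy1 the groups did not overlap, but library 3, high for Wdfy1, was the lowest of its group for Adi1.

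Knockout-labelled controls 6 to 10 had Adi1 at 11.3, 11.6, 11.4, 11.8 and 12.6 RPKM. Knockout-labelled CSDS libraries 1 to 5 had 9.96, 10.9, 11.2, 10.2 and 10.9, all below the controls. The CSDS minus control difference was 0.60 ± 0.08 (SE) in WT and -0.14 ± 0.04 in the knockout label. WT 9B was at 11.5, below every WT CSDS library, and knockout-labelled 10B was at 11.7, within the range of its controls. Knockout-labelled 11 was at 10.9, below its controls and within the range of the knockout-labelled CSDS libraries.

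Some markers of other cells also moved with CSDS in WT. The 5 red blood cell markers summed to 559 to 2807 RPKM in WT CSDS libraries and 206 to 297 in WT controls, and the 5 microglia markers to 55.5 to 62.0 and 48.9 to 54.9. In the knockout label the red blood cell sums were 178 to 356 after CSDS and 260 to 377 in controls. No gene of these lists was at 0 in every library of a group. Their part in the Wdfy1, Adi1 and Nnt values was not tested.

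**Figure D3:**
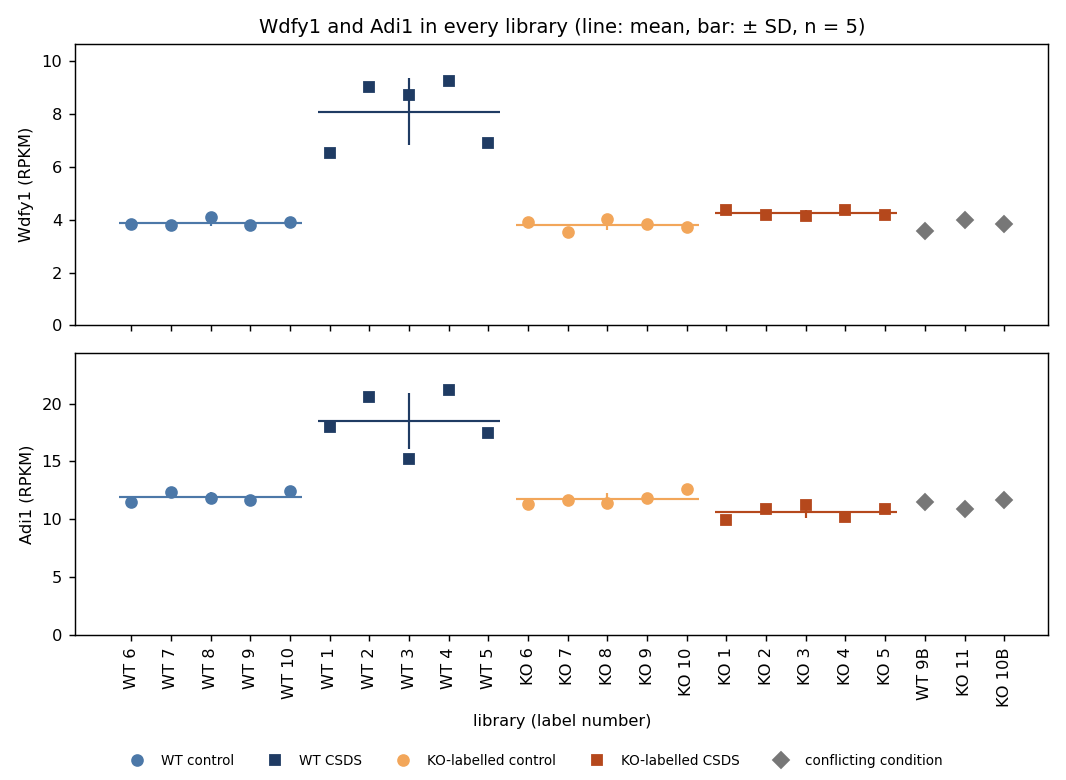
RPKM of Wdfy1 (upper) and Adi1 (lower) in every library, with the mean and SD of each group of 5. Only the 5 WT CSDS libraries are raised for both genes, at 6.54 to 9.26 and 15.2 to 21.2 RPKM, and WT 9B and knockout-labelled 10B lie with the controls or just below them. Knockout-labelled 11 lies with the controls for Wdfy1 and with the knockout-labelled CSDS libraries for Adi1.

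Ide encodes insulin-degrading enzyme, a metalloprotease that also cleaves amyloid beta, and lies on chr19:37268743-37337852, minus strand. WT controls 6 to 10 had 17.4, 13.4, 12.9, 17.4 and 8.71 RPKM. WT CSDS libraries 1 to 5 had 8.79, 8.47, 8.90, 9.05 and 8.91. One control, WT 10, fell among the CSDS libraries, and the other 4 lay well above them at 2 separate levels.

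Knockout-labelled controls 6 to 10 had Ide at 8.60, 8.10, 8.16, 8.24 and 12.6 RPKM. Knockout-labelled CSDS libraries 1 to 5 had 13.6, 8.49, 12.7, 9.00 and 13.3. WT 9B was at 18.4, and knockout-labelled 10B and 11 were at 17.0 and 16.8. The 23 values fell into 3 bands with no value between them, a band starting where a value was at least 15% above the one below it, a step chosen after the values were seen. The bands had medians of 8.65 (12 libraries), 13.1 (6 libraries) and 17.4 RPKM (5 libraries), ratios of 1, 1.51 and 2.01, and each genotype had libraries in every band.

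Bands ran across groups, so group means of Ide reflect how many libraries of each band a group held. Whether CSDS or the draw of libraries set those numbers was not tested. CSDS minus control was -0.59 ± 0.16 (SE) in WT and 0.30 ± 0.16 in the knockout label. Without control 10 of both genotypes these were -0.75 and 0.41. Counting the 3 libraries of conflicting condition as controls gave -0.67 and 0.05, and counting them as CSDS gave -0.42 and 0.46.

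Genes beside Ide, which were not used to choose it, were read for the same bands. Fgfbp3, encoding a fibroblast growth factor binding protein, lies 0.349 Mb from Ide and had medians of 1.93, 2.66 and 3.13 RPKM over the libraries of the low, middle and high Ide bands. Btaf1, encoding a TATA-binding protein-associated ATPase, had medians of 6.94, 9.15 and 11.4. Cpeb3 and March5, which lie between Btaf1 and Ide, had medians of 7.15, 6.82 and 8.07 and of 20.9, 21.5 and 20.4. The 2 genes that followed the bands thus lie on the far side of 2 that followed them less or not at all. Fgfbp3 and Btaf1 were also the 2 genes most like Ide over the 23 libraries among genes of mean RPKM of at least 1 (Pearson r = 0.882 and 0.850), and stayed first after each group was centred on its mean (r = 0.902 and 0.884 over 20 libraries). These r are descriptive, and the libraries share groups.

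In WT, Btaf1 was lower after CSDS by 0.61 ± 0.09 (SE) on the log2 scale. It was at 10.2 ± 1.40 RPKM in controls and 6.47 ± 0.380 after CSDS (SD, n = 5). All 5 WT CSDS libraries and WT control 10 were in the low Ide band. The part of CSDS and of the draw of libraries in the Btaf1 difference was not tested. Differences of Btaf1 and Fgfbp3, which followed the bands, are given with no p-value. Counting the 3 libraries of conflicting condition as CSDS gave -0.48 for Btaf1. Cpeb3 fell by 0.21 ± 0.05 in WT (limma adjusted p = 0.013), and the Fgfbp3 difference there was -0.25 ± 0.11. In controls the Btaf1 difference of the knockout label minus WT was -0.23, and -0.35 once control 10 of both genotypes was left out.

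**Figure D4:**
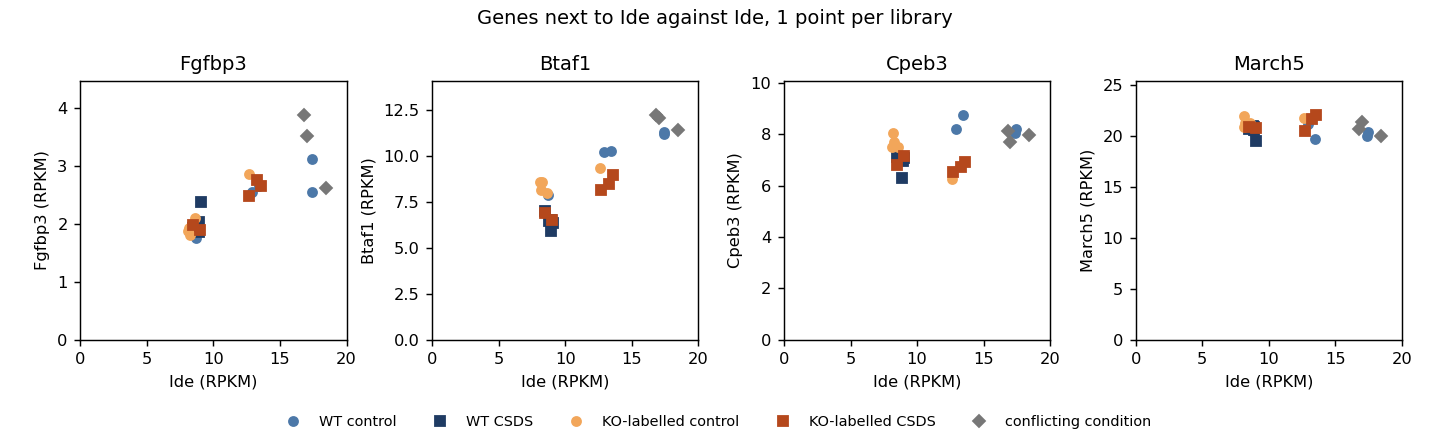
RPKM of 4 genes within 1 Mb of Ide against RPKM of Ide, 1 point for each of the 23 libraries. Fgfbp3 and Btaf1 rise from the low to the high Ide band, with medians of 1.93 to 3.13 and 6.94 to 11.4 RPKM, while March5 stays at 19.5 to 22.1 RPKM.

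Entpd4 and Entpd4b encode nucleoside diphosphohydrolases of the Golgi and lysosome and lie in tandem on chr14:69337174-69367270 and chr14:69555424-69585520, both on the plus strand. Their longest coding transcripts in GENCODE M21, 3589 bases each, had 0 mismatches. The third exon, the first that is coding along its whole length, is shown because it is the same in both copies, with capitals marking the first 75 bases, which is the length of 1 read:
Entpd4 exon 3, chr14:69349073-69349270, plus strand: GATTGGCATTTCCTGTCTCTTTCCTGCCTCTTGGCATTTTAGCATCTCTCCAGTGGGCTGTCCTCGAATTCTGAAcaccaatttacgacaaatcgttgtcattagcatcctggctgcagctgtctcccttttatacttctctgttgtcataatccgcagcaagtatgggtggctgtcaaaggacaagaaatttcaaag
Entpd4b exon 3, chr14:69567323-69567520, plus strand: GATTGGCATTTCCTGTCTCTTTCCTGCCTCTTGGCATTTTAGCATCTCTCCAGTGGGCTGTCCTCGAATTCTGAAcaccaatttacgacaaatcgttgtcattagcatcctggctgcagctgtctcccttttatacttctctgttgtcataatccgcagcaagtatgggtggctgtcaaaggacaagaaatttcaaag
A read from such a stretch cannot be assigned to one copy. The deposited values of the 2 genes were equal in 7 of 23 libraries and differed by at most 0.0405% in the others, so they are 1 measurement and not 2.

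WT controls 6 to 10 had Entpd4 at 12.3, 11.9, 8.35, 12.2 and 16.3 RPKM. WT CSDS libraries 1 to 5 had 8.40, 12.3, 8.57, 13.5 and 8.69. The WT groups overlapped, with single libraries up to 1.96 times apart.

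Knockout-labelled controls 6 to 10 had Entpd4 at 16.9, 11.9, 16.1, 16.5 and 16.0 RPKM. Knockout-labelled CSDS libraries 1 to 5 had 18.5, 17.4, 17.9, 13.4 and 17.4. WT 9B was at 12.1, and knockout-labelled 10B and 11 were both at 12.4. By the same 15% step the values fell into 3 bands, with medians of 8.48 (4 libraries), 12.3 (10 libraries) and 16.9 RPKM (9 libraries), in ratios of 1, 1.45 and 1.99. The step from the middle to the high band, 13.5 to 16.0 RPKM, is 1.18 times, and a step of 20% in place of 15% left 2 bands. The low band held WT libraries alone. The high band held 8 knockout-labelled libraries and WT control 10. The knockout label minus WT difference was 0.35 ± 0.15 (SE) in controls and 0.71 ± 0.14 after CSDS.

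The 4 genes most like Entpd4 over the 23 libraries were gene models laid over or beside the 2 copies, Gm16867 and Gm27177 (r = 0.998) and Gm27221 and Gm27176 (r = 0.954). The library kit does not keep strand, and these models overlap the copies, so their reads and those of Entpd4 cannot be told apart. Slc25a37 and Chmp7 lie in the same megabase, on either side of the 2 copies. They had medians of 4.87, 4.81 and 4.77 and of 27.7, 27.9 and 27.5 RPKM over the low, middle and high Entpd4 bands.

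**Figure D5:**
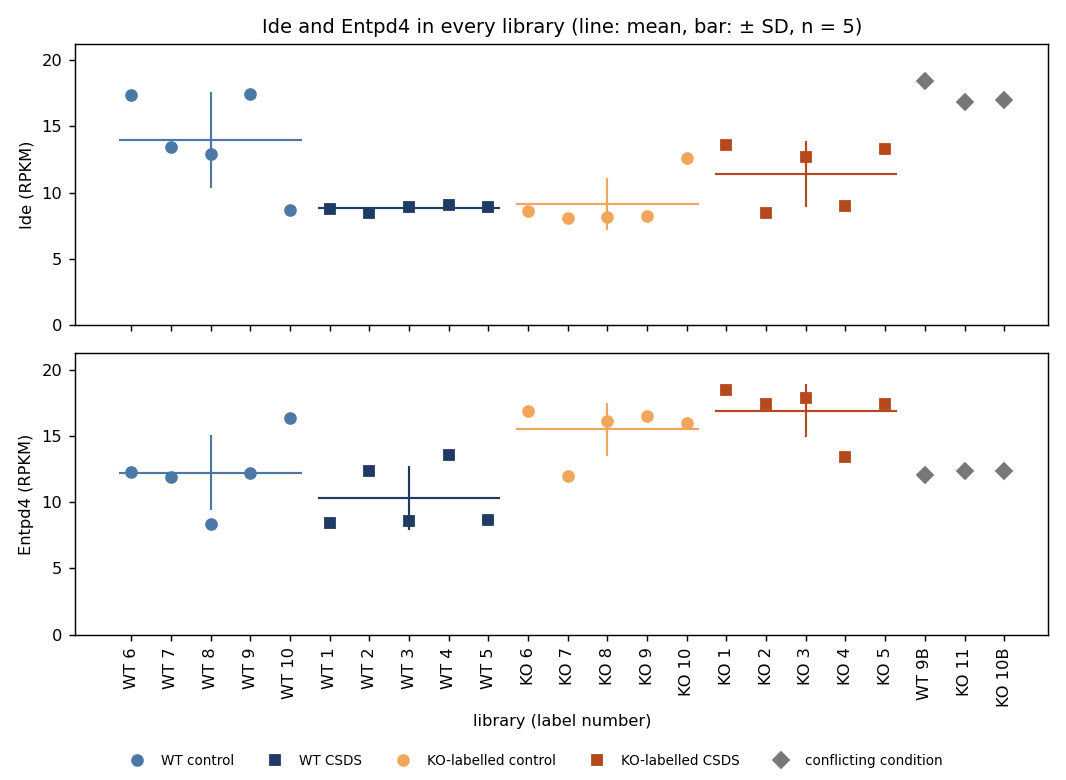
RPKM of Ide (upper) and Entpd4 (lower) in every library, with the mean and SD of each group of 5. Values gather near 3 levels for each gene, about 8.65, 13.1 and 17.4 for Ide and 8.48, 12.3 and 16.9 for Entpd4, and the SD bars of several groups span levels.

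The 2 banded genes were not banded alike. WT controls 6 and 9 were high for Ide and middle for Entpd4, WT control 10 was low for Ide and high for Entpd4, and knockout-labelled CSDS 1, 3 and 5 were middle for Ide and high for Entpd4. Over the 23 libraries r between Ide and Entpd4 was -0.038, given as a description.

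Putting each gene's values into bands by the 15% step gave 14 combinations among the 23 libraries. WT controls 6 and 9 shared all bands with WT 9B. Knockout-labelled 10B shared all bands with 11. WT CSDS 1 with 5, WT CSDS 2 with 4, knockout-labelled controls 6, 8 and 9, and knockout-labelled CSDS 1, 3 and 5 made up the other 4 sets, and the remaining 8 libraries were each alone.

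The same sets were looked for over all genes, with the 7 genes and their neighbours left in. For each of the 253 pairs of libraries, the squared difference in estimated reads was set against counting noise, over genes with at least 100 reads in both. The 6 closest pairs all shared every band: WT CSDS 1 and 5 (1.93 times counting noise), WT control 9 and WT 9B (2.10), WT controls 6 and 9 (2.12), WT control 6 and WT 9B (2.65), knockout-labelled controls 8 and 9 (2.71) and knockout-labelled CSDS 3 and 5 (2.78). The next pair, knockout-labelled CSDS 1 and 2 (2.88), did not share every band, and knockout-labelled 10B and 11 (2.93) did. The 12 pairs that shared every band had a median of 2.85 and the others 7.36, but pairs that share bands also share a group more often. Within groups the medians were 3.30 (10 pairs, 1.93 to 4.56) and 4.41 (33 pairs, 2.88 to 9.48), and the ranges overlapped. These pairs count the 3 libraries of conflicting condition as a group of their own, although it holds both genotype labels. Knockout-labelled 10B and 11 (2.93) are thus among the 10 pairs, and the medians are not those of the assigned groups alone. The 33 pairs include all within-group pairs of control 10, which read as female. Those were at 4.42 to 6.05 in WT and at 8.36 to 9.48 in the knockout label, the upper end of the range. Medians without control 10 were not taken. No pair came down to counting noise. Whether any pair comes from 1 animal was not tested, and each library was kept as a sample of its own.

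Taking each pair of the genes, Gabra2 and Nnt went together over the 23 libraries (r = 0.867) and still did without the WT CSDS libraries (0.867), but not within groups (-0.284 after centring). Wdfy1 and Adi1 went together over all libraries (0.885) and in opposite directions without the WT CSDS libraries (-0.721). Nnt and Wdfy1 varied together after each group was centred (0.724), and in both WT CSDS 1 and 5 lay below 2, 3 and 4. Without the WT CSDS libraries, and without centring, r between Nnt and Wdfy1 was -0.320. These are descriptions over libraries that share groups.

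The named genes most like the others in level over the 23 libraries lay on other chromosomes, with 1 exception (Ntsr2). Hs3st4 (r = 0.905), Rab2a, Nrip3, Jpt1 and Tmem181b-ps followed Gabra2. Dynlt1b (0.908), Tmem181b-ps, Tmem181a and Mid1, with 1 gene model that has no name, followed Nnt. Xpnpep1 (0.898), Ndn, Gm6472, Drc1 and F2r followed Wdfy1, and Gm6472 (0.839), 1500015A07Rik, Ntsr2, Ndn and D630023F18Rik followed Adi1, of which Ntsr2 is on the same chromosome as Adi1, 12.015 Mb away. After centring each group, the gene most like Nnt was Cat, which encodes catalase (r = 0.955 over 20 libraries).

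The comparisons across all genes called 22.4% of genes for WT CSDS, and 3 of the 7 genes described here. They called 15.0% for CSDS in the knockout label, with 3 of 7, and 1.14% for the knockout label in controls, with 2 of 7. For the knockout label after CSDS they called 1.91%, with 6 of 7, and for the difference of the 2 CSDS effects 0.148%, with 2 of 7. These comparisons helped choose the 7 genes, so nothing is read from their counts.

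Neighbours within 1 Mb of the 7 genes, 146 in all, were taken by position. They include Btaf1 and Fgfbp3, which followed the Ide bands. They also include the gene models over the Entpd4 copies, whose reads cannot be told apart from those of Entpd4. The counts are therefore not independent of the choice of the 7 genes. Of those tested, 24 of 80 (12 higher, 12 lower) were called for CSDS in WT, 11 of 82 for CSDS in the knockout label, 0 of 83 for the knockout label in controls, 4 of 83 after CSDS and 0 of 80 for the difference of effects, against the shares over all genes given above. By limma, 16 of the 83 and 9 of the 80 had an unadjusted p below 0.05 where 0 were called. Their median log2 differences were 0.0032, 0.0308, 0.0222, 0.0282 and 0.0151, beside -0.0017, -0.0067, 0.0077, 0.0037 and -0.0043 over all genes tested.

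Near Nnt, Gm9752 rose after CSDS by 0.38 ± 0.04 (SE) in WT (limma adjusted p = 0.000453) and by 0.24 ± 0.05 in the knockout label (0.00835). Ccl28, a chemokine gene near Nnt, rose by 0.75 ± 0.13 in WT (limma adjusted p = 0.00351). Near Wdfy1, Acsl3, which encodes an acyl-CoA synthetase, fell in both, by 0.27 ± 0.04 and 0.29 ± 0.04 (limma adjusted p = 0.00142 and 0.00128). Trappc12, next to Adi1, rose in both, by 0.18 ± 0.04 in each (limma adjusted p = 0.0158 and 0.0128), whereas the Adi1 values were higher after CSDS in WT and lower in the knockout label. Counting the 3 libraries of conflicting condition as CSDS, the WT calls of Ccl28, Acsl3 and Trappc12 were lost (limma adjusted p = 0.0562, 0.0505 and 0.0659). In that setting no neighbour was called for CSDS in the knockout label.

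For the knockout label after CSDS, the called neighbours were Nim1k near Nnt (0.24 ± 0.05, SE, limma adjusted p = 0.031) and 3 gene models over or between the Entpd4 copies. Of these 3, Gm16867 (0.81 ± 0.16, SE) and Gm27177 (0.81 ± 0.17) repeat the Entpd4 values, and Gm27175 (0.90 ± 0.19), which lies between the copies, had r = 0.821 with Entpd4, so their differences are given with no test. Nim1k lost its call in most of the 10 fits that left out 1 library, with a limma adjusted p up to 0.0772, and kept it without WT CSDS 1 or 3 or knockout-labelled CSDS 5.

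A wider window of 10 Mb was read after the data were seen. Around Adi1, 31 of 79 genes (39.2%) were called for CSDS in WT and 7 of 78 (8.97%) for the knockout label after CSDS, beside 22.4% and 1.91% of all genes. Around the other 6 genes the shares were 19.6 to 25% and 1.29 to 3.68%. For CSDS in the knockout label, 17 of 77 genes (22.1%) around Adi1 were called, beside 15.0% of all genes. Around the other 6 genes that share was 9.15 to 14.3%. The Adi1 window is singled out for its shares, which are a description with no test. The genes whose levels ran most against Adi1 over the 23 libraries included 3110053B16Rik (r = -0.920), Gm9866 (-0.907) and Zfp125 (-0.880), all on chromosome 12 and 7.754, 1.515 and 7.754 Mb from Adi1, and 3110053B16Rik also ran against Wdfy1 (-0.895). These too were picked after the data were seen.

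Genes that work with the 7 were read from lists. Of 11 GABA-A receptor subunits tested besides Gabra2, Gabra5 (0.14 ± 0.03, SE, limma adjusted p = 0.00717) and Gabrd (0.17 ± 0.04, 0.0132) rose after CSDS in WT. Gabrd (0.28 ± 0.06, 0.00999) and Gabra4 (0.12 ± 0.03, 0.0242), whose gene is near Gabra2, rose in the knockout label. The shares over all genes were 22.4% and 15.0%. Only Gabrd was called between genotypes, higher by 0.22 ± 0.04 in the knockout label after CSDS (limma adjusted p = 0.0326), where 1.91% of all genes were called. No subunit was called there without WT CSDS 1, 4 or 5 or knockout-labelled CSDS 1, 2 or 5, and 2 were without knockout-labelled CSDS 3. The Gabra4 call was lost without knockout-labelled control 6 or CSDS 1, 2 or 5 (limma adjusted p of 0.0522 to 0.0561).

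Of 12 genes for mitochondrial NADPH and peroxide, the pathway of Nnt, 5 rose after CSDS in WT, among them Idh2, an NADPH-making isocitrate dehydrogenase (0.36 ± 0.05, SE, limma adjusted p = 0.00102), and Gsr, glutathione reductase (0.21 ± 0.03, 0.0022). Prdx3, Gpx1 and Txnrd2 were the others. Idh2 and Gsr also rose in the knockout label (0.26 ± 0.07 and 0.13 ± 0.03, limma adjusted p = 0.0373 and 0.031). Over all genes 22.4% and 15.0% were called. The count in WT was 3 without control 6 or 9 or CSDS 2, 3 or 4, and 4 without any other library. That in the knockout label was 0 without control 6 or 8 or CSDS 3 or 4, 1 without control 7 or 9 or CSDS 1, 2 or 5, and 3 without control 10. By limma 0 of the 12 were called between genotypes, where the Nnt values lay apart, with 2 at an unadjusted p below 0.05 in controls and 3 after CSDS.

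Of 8 genes of methionine salvage and polyamines, the pathway of Adi1, Amd1 and Mat2a fell after CSDS in WT (by 0.19 ± 0.03 and 0.20 ± 0.03, SE, limma adjusted p = 0.00149 and 0.00245). In the knockout label Amd1 fell (by 0.20 ± 0.03, limma adjusted p = 0.00503) and Mri1 rose (0.24 ± 0.05, 0.0141). Of 7 nucleoside diphosphohydrolases, the family of Entpd4, Entpd2 rose in both (0.38 ± 0.07 and 0.24 ± 0.04, limma adjusted p = 0.00364 and 0.00423), and Cant1 and Entpd5 fell in WT. Without knockout-labelled control 7, 3 of the 7 were called in the knockout label. Of 6 peptide-degrading metalloproteases, to which Ide belongs, Pitrm1 and Ece2 rose in both. Their count in WT was 1 without control 6, 9 or 10 or CSDS 1, 2, 4 or 5. In the knockout label it was 0 without control 6 or 9 or CSDS 3 or 4, and 1 without control 7 or 8 or CSDS 1, 2 or 5. Of 4 genes related to Wdfy1, Wdfy3 fell in WT (by 0.28 ± 0.03, limma adjusted p = 0.000622). Without WT CSDS 4, 2 of these 4 were called in WT, and without knockout-labelled control 10, 1 was in the knockout label. These counts stand beside 22.4% of all genes for CSDS in WT and 15.0% in the knockout label. By limma these 4 lists had 0 calls between genotypes. At an unadjusted p below 0.05 the methionine list had 3 genes in controls and 3 after CSDS, the diphosphohydrolases 0 and 2, the metalloproteases 1 and 0, and the genes related to Wdfy1 1 and 3.

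Of 9 other genes known to differ between C57BL/6 colonies, 4 passed the filter on low values. Cyfip2, Adcy5 and Pdzk1 ranged 1.31, 1.25 and 1.28 times from lowest to highest library, and Fgfbp3, which followed the Ide bands, ranged 2.20 times. Across the 5 limma comparisons 0 of the 4 were called, with 0 to 2 at an unadjusted p below 0.05. Without WT control 10, Fgfbp3 was lower after CSDS in WT (-0.35 ± 0.07, SE) and was called. Because Fgfbp3 followed the Ide bands, nothing is read from that call.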

How the data were processed

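Poly(A) RNA of 23 mouse hippocampus libraries was measured. Per the labels' protocols, libraries were made with a TruSeq RNA V2 kit, which does not keep strand, and were read from a single end over 75 bases. STAR and the mm10 build are named per the submitters' processing notes, while the version of STAR, the annotation and how reads were counted are not stated. The authors deposited RPKM per gene in 1 table per genotype. Symbols came from the WT table, since 26 rows differed in symbol between the tables.

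The 7 genes and all lists were chosen with earlier results of these data known, and 1 gene of the list of other genes that differ between colonies is not reported here. Groups were set where title and treatment field gave the same condition, and whether each library is a separate animal is not stated, so a p-value reflects the spread among libraries, which may be technical. Genes whose RPKM averaged 0.5 or more in the libraries compared were fitted as log2(RPKM + 0.5) with limma-trend (limma 3.58.1, R 4.3.3), two-sided, with Benjamini-Hochberg adjustment over all genes tested. The procedure was first tested on simulated data. Reads per library were estimated from 11982 single-exon genes, where low RPKM values are whole multiples of 1 read, and 93.5 to 94.5% of these values lay no more than 0.05 from a whole read. The counting error covers counting alone.

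Genes named in the text are the 7, the 5 with the highest Pearson r to each among genes of mean RPKM of at least 1 (over all libraries and after centring groups), called neighbours within 1 Mb (up to 4 for each gene by smallest p), called genes of each list (up to 4 by smallest p) and Nrsn2. Cpeb3, March5, Slc25a37, Chmp7, Xist, Ddx3y and the genes that ran against Adi1 and Wdfy1 were named after their values were seen. Alternatives were other pseudocounts and filters, median centring, other handling of the 3 libraries of conflicting condition and of control 10, 1 fit of 20 libraries, a replicate block, Spearman correlation and leaving out each library.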

Additional observations from a re-analysis of the deposited data

Results flagged for a closer look

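In groups of 5, single libraries stood far from the nearest of the others relative to the range of their group. Chance gives about 1 in 20 groups such a library. Among the genes of interest these were Ide at 12.6 RPKM in knockout-labelled control 10, Entpd4 at 11.9 in knockout-labelled control 7 and at 13.4 in knockout-labelled CSDS 4, with Entpd4b the same at 11.9 and 13.4. In the same libraries Gm16867 was at 6.84 and 7.83 RPKM and Gm27177 at 7.08 and 8.05. Gm27175 was at 0.966 RPKM in knockout-labelled control 7 and at 2.26 in knockout-labelled CSDS 5. Of the other neighbours, Nim1k was at 2.71 RPKM in knockout-labelled control 8, Lgi1 at 23.6 in WT control 7 and Egr3 at 19.5 in WT control 10.

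Adi1 was higher in every WT CSDS library than in every WT control (log2 difference 0.60), and lower in every knockout-labelled CSDS library than in every knockout-labelled control (-0.14). Over all genes 17.1% did not overlap between the WT groups and 12.9% between the knockout-labelled ones. The difference between genotypes in Adi1 was not tested, since the gene was chosen from these values.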

How the results depend on the processing

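The differences of the 7 genes moved by less than the spread of their libraries in 723 of 728 recomputations, although that of Gabra2 for CSDS in WT, near 0, changed sign without WT control 10 (-0.03). The other 5 came from counting the 3 libraries of conflicting condition as CSDS, where Wdfy1 in WT went to 0.78 and Gabra2 in the knockout label to -0.24.

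Counts of called genes moved more. With those 3 libraries as CSDS, calls fell to 1240 genes for CSDS in WT (7 neighbours), 143 for CSDS in the knockout label (0 neighbours by limma), 2 neighbours for the knockout label after CSDS and 1 gene for the difference of effects. As controls they gave 978 genes (3 neighbours) for the knockout label in controls and 98 for the difference. Without control 10 of both genotypes, 18 neighbours were called for CSDS in the knockout label, 3 for the knockout label in controls, and 181 genes (2 neighbours) for the difference. Median centring gave 116 genes and 1 fit of all 20 libraries 722 for the knockout label in controls, and that fit 7 neighbours after CSDS. With no filter on low values 0 neighbours passed limma after CSDS.

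Whether the replicate numbers pair the samples was not settled, and the main fits used no pairing. Correlations of same-numbered libraries ran from -0.106 to 0.370. The closest partner bore the same number for WT controls 8 and 10 and WT CSDS 2 and 3, and another number for the rest. With a replicate block, 45 genes were called for the knockout label in controls and 162 after CSDS (0 neighbours by limma).

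Leaving out 1 library gave 3077 to 4016 genes (17 to 24 neighbours) for CSDS in WT. For CSDS in the knockout label it gave 1658 genes without CSDS 4 to 3668, and 7 neighbours without control 6 to 18 without control 10. For the knockout label in controls it gave 68 to 218 genes: 68, 101 and 115 without WT control 9, 6 and 7, and 126, 131, 103 and 118 without knockout-labelled control 6, 7, 8 and 9, with 0 to 2 neighbours. After CSDS it gave 205 to 478 genes: 228, 205 and 231 without WT CSDS 1, 4 and 5, and 210, 220 and 219 without knockout-labelled CSDS 1, 2 and 4, with 0 to 4 neighbours. For the difference it gave 16 to 244 genes: 68, 16 and 244 without WT control 8, 9 and 10, and 17 without knockout-labelled CSDS 1, with 0 to 1 neighbours. Spearman correlation shared 0 to 2 of the 5 most alike genes for Gabra2, Nnt, Wdfy1, Ide and Adi1. A step of 20% in place of 15% gave Nnt 1 band, Gabra2 3 in place of 4, and Entpd4 2 in place of 3, and 10% gave Adi1 4 in place of 2. Depth limits none of the 7 genes, at 502 reads or more.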
